A study of Arabidopsis thaliana with 3 samples.

Results

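*MIR166c*, *MIR166d*, *MIR166e*, *MIR166f* and *MIR166g* are the 5 miR166 loci of *A. thaliana* on chromosome 5. They were taken by name from the deposited table, where they are 5 of the 7 miR166 loci and 5 of the 11 *MIRNA* loci listed, and the RefSeq annotation of TAIR10.1 places all 5 on chromosome 5. The other miR166 loci are *MIR166a* and *MIR166b*. The data are small RNA sequencing (sRNA-seq) reads from inflorescences of wild-type Columbia (Col-0) plants, in 3 replicate libraries of 1 condition, with no treatment and no mutant. Plant age and stage are not given in the sources used here. The libraries held 9624898, 11578886 and 8274294 reads in replicates 1, 2 and 3.

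miR166 is a 21-nt microRNA of land plants. It guides cleavage of mRNAs of the class III HD-ZIP transcription factors, among them PHABULOSA, PHAVOLUTA and REVOLUTA, which set the upper side of lateral organs, the vascular pattern and the meristem. A *MIRNA* locus is transcribed into a longer primary transcript with a hairpin, from which Dicer-Like enzymes cut a duplex of the miRNA and its partner strand, the miRNA*. Several loci can thus yield the same mature miRNA from different hairpins.

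The mature sequence is shown because all 5 loci share it, with the seed (bases 2 to 8) in capitals.
miR166: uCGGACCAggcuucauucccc
It was found at 7 positions in TAIR10.1, so a read of this sequence is multi-mapping (MMAP), which means that it aligns equally well to more than 1 place. The precursors are shown next because they are what tells the loci apart. The mature miRNA is in capitals, and the precursors are written 5′ to 3′ on the strand of the gene.
MIR166c: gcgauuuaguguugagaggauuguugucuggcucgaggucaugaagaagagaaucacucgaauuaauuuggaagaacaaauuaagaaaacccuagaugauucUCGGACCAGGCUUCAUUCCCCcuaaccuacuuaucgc
MIR166d: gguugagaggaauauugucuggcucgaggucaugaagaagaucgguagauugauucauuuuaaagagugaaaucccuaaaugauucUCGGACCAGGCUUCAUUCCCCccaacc
MIR166e: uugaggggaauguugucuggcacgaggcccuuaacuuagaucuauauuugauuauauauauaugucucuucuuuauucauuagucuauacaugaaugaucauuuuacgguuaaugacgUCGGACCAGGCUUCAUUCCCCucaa
MIR166f: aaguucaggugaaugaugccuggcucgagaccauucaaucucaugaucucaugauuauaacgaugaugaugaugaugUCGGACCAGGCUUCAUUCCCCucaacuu
MIR166g: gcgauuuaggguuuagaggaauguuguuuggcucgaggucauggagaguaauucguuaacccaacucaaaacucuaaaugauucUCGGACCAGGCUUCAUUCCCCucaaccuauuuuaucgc

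The positions are given on TAIR10.1, the RefSeq build at hand, since the table lists loci by name and the authors aligned to TAIR10. *MIR166c* (AT5G08712) is at chr5:2838635-2838773 on the plus strand. *MIR166d* (AT5G08717) follows on the same strand at chr5:2840622-2840734, with 1848 nt between the precursors. *MIR166e* (AT5G41905) is at chr5:16775520-16775662 and is the only one of the 5 on the minus strand. *MIR166f* (AT5G43603) is at chr5:17516301-17516405, on the plus strand. *MIR166g* (AT5G63715) is at chr5:25504798-25504919, also on the plus strand, and the annotation records that its dominant gain-of-function alleles enlarge the meristem. No other annotated gene overlaps any of the 5 precursors. Between *MIR166c* and *MIR166d* the annotation has 2 long noncoding RNA genes on opposite strands, AT5G01575 and AT5G01565, both with their lower coordinate 284 nt after the *MIR166c* precursor.

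The precursors differ more than their common product does. Their lengths ran from 105 nt (*MIR166f*) to 143 nt (*MIR166e*), and in all 5 the mature miRNA lay on the 3′ arm. In global alignments of the 10 pairs, identity ran from 49.7% (*MIR166e* and *MIR166g*) to 75% (*MIR166c* and *MIR166g*). The tandem pair *MIR166c* and *MIR166d* stood at 69.0%, with 98 identical positions of 142 aligned columns. RNAfold gave the *MIR166e* precursor, the longest, the lowest minimum free energy, -49.1 kcal/mol, and the *MIR166d* precursor the highest, -37.5 kcal/mol. Per nt of precursor the order was another. The lowest value was then that of *MIR166f* (-0.390 kcal/mol) and the highest that of *MIR166c* (-0.319), with *MIR166e* at -0.343. Between 16 and 18 of the 21 miRNA bases were paired in these structures.

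**Figure D1:**
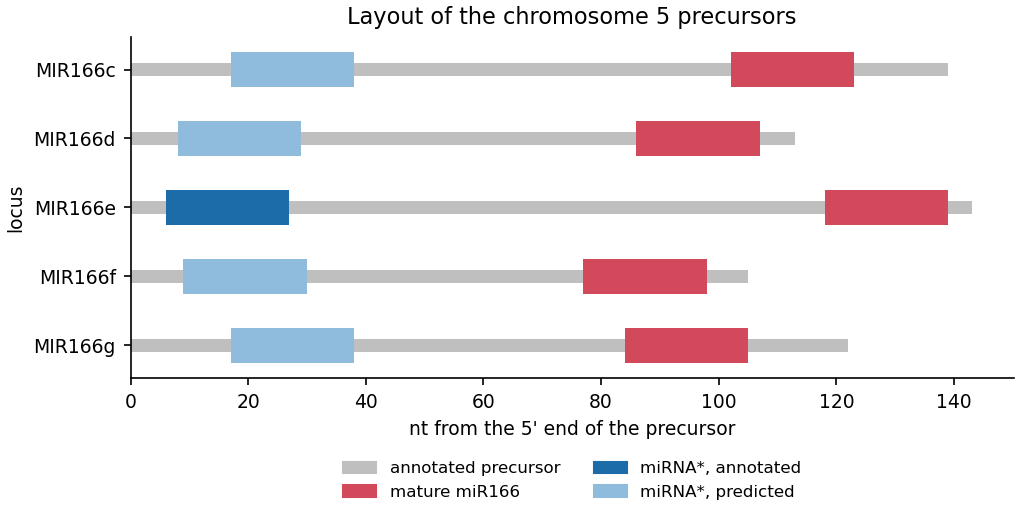
Layout of the 5 precursors, with the distance in nt from the 5′ end of the precursor on the x axis and 1 row per locus. Grey bars are the annotated precursors, red boxes the mature miRNA and blue boxes the miRNA*, dark where annotated and light where predicted from the fold; the mature miRNA begins 77 nt into *MIR166f* and 118 nt into *MIR166e*.

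The miRNA* strands are shown because a read of one of them, unlike a miR166 read, names its locus. A miRNA* is annotated only at *MIR166e* among the 5. The others were predicted from the fold as the strand that pairs with the miRNA, with overhangs of 2 nt at the 3′ ends, and the same rule returned the annotated miRNA* at *MIR166a*, *MIR166b* and *MIR166e*. Capitals mark bases that differ from the *MIR166e* strand.
MIR166c miRNA*: ggaUuguugucuggcUcgagg
MIR166d miRNA*: ggaauAuugucuggcUcgagg
MIR166e miRNA*: ggaauguugucuggcacgagg
MIR166f miRNA*: UgaaugAugCcuggcUcgagA
MIR166g miRNA*: ggaauguuguUuggcUcgagg
Each of the 5 had exactly 1 match in the genome. The *MIR166c*, *MIR166d* and *MIR166g* strands each differed from the *MIR166e* strand at 2 bases and the *MIR166f* strand at 5. The bases next to the mature miRNA also differed. With 1 more base at its 3′ end, the sequence at *MIR166c* and *MIR166d* ended in C and matched 4 positions, while that at *MIR166e*, *MIR166f* and *MIR166g* ended in U and matched 3.

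ShortStack-U, 1 of the 8 alignment methods in the table, places an MMAP read by the uniquely aligned reads in the vicinity of each possible position. The vicinity is made of 5 bins of 50 nt. On TAIR10.1, the share of 21-mers starting in this vicinity that occurred once in the genome was 93.6% for *MIR166c* (234 of 250), 90.8% for *MIR166d* (227), 97.2% for *MIR166e* (243), 96.4% for *MIR166f* (241) and 93.2% for *MIR166g* (233). Unique sequence was therefore present near every one of the 5 loci. How many reads aligned to it, which is what ShortStack-U uses, is not among the deposited counts. The vicinities of *MIR166c* and *MIR166d* did not overlap (chr5:2838601-2838850 and chr5:2840601-2840850), and they had 16 different 21-mers in common.

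The first question was how many miR166 reads each of the 5 loci receives under ShortStack-U. Together they received few of them. The 5 loci held 1780 of 688233 miR166 reads in replicate 1, 42818 of 763050 in replicate 2 and 2457 of 771145 in replicate 3. As shares, these were 0.259% (95% Clopper-Pearson interval 0.247 to 0.271%), 5.61% (5.56 to 5.66%) and 0.319% (0.306 to 0.331%). The mean was 2.06% ± 3.07 (SD, n = 3), and replicate 2 stood apart from the other replicates. Intervals cover the counting of placed reads alone. The uniquely aligned reads used as a guide are not counted in the table, and PCR copies were not told apart. In whole inflorescences, fewer cells that express a locus and less RNA per cell cannot be told apart.

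*MIR166f* was the highest of the 5 in every library. It received 1240, 39899 and 1770 reads in replicates 1, 2 and 3, or 129, 3446 and 214 RPM (the read count scaled to the library total). It made up 69.7%, 93.2% and 72.0% of the reads of the 5 loci. Without it, the remaining 4 loci held 0.0785%, 0.383% and 0.0891% of the miR166 reads, so that replicate 2 was still the highest.

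*MIR166c*, the first locus of the tandem, received 282, 350 and 366 reads in replicates 1, 2 and 3, or 29.3, 30.2 and 44.2 RPM. *MIR166d*, the other tandem locus, received 139, 798 and 80 reads, or 14.4, 68.9 and 9.67 RPM. *MIR166e*, on the minus strand, received 119, 1676 and 193 reads, or 12.4, 144.7 and 23.3 RPM. Replicate 2 was the highest library for *MIR166d* and *MIR166e*, while for *MIR166c* its RPM stood next to that of replicate 1. *MIR166g* was the lowest of the 5 in every library, with 0, 95 and 48 reads, or 0, 8.20 and 5.80 RPM. The count of 0 allows up to 3 reads, which is 0.312 RPM in replicate 1.

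**Figure D2:**
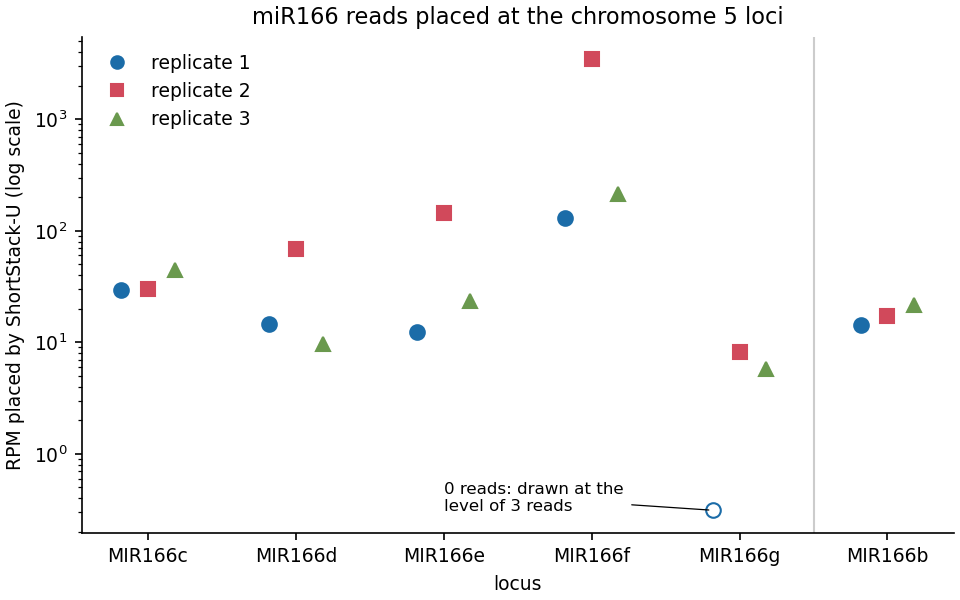
RPM placed by ShortStack-U (y axis, log scale) at the 5 chromosome 5 loci and, right of the line, at *MIR166b*, with 1 point per replicate library. *MIR166f* is on top in each library, from 129 to 3446 RPM, *MIR166c* lies between 29.3 and 44.2 RPM, and the open point marks the 0 reads of *MIR166g* in replicate 1, drawn at the level of 3 reads.

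The order of the 5 loci kept its ends but not its middle. It was f, c, d, e, g in replicate 1, then f, e, d, c, g in replicate 2 and f, c, e, d, g in replicate 3 (Kendall's W 0.822, given as a description over 5 loci and 3 libraries). *MIR166c* was the second locus in replicates 1 and 3 and the fourth in replicate 2. Neighbours in this order were compared by exact two-sided binomial tests of equal reads, made for all 23 pairs of paralogs in the table, 3 libraries and 5 methods, with Benjamini-Hochberg adjustment over the 345 tests. Under ShortStack-U, 29 of the 30 tests between the 5 loci had an adjusted p under 0.05, where 94.2% of all tests under this method did. The exception was *MIR166d* with 139 reads against *MIR166e* with 119 in replicate 1 (ratio 1.17, interval 0.908 to 1.5, exact binomial test, adjusted p = 0.44). Of the 10 pairs, 9 were called in all 3 libraries, as were 87% of the 23 pairs in the table, and 7 of the 9 had the same direction each time. Under Bonferroni adjustment 8 of the 10 pairs were called in all 3 libraries, since *MIR166d* with 80 reads against *MIR166g* with 48 in replicate 3 was lost, and a filter at 10 RPM left that test out as well. The pairs that turned were *MIR166c* with *MIR166d* and *MIR166c* with *MIR166e*. These tests compare reads within single libraries, not plants.

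The tandem pair was examined on its own, because *MIR166c* and *MIR166d* start their mature sequences only 1971 nt apart. Under ShortStack-U the reads at *MIR166c* were 2.03 times those at *MIR166d* in replicate 1 (interval 1.65 to 2.50, exact binomial test, adjusted p = 9.6e-12). By the same exact test, the ratio was 0.439 in replicate 2 (interval 0.386 to 0.498, adjusted p = 3.7e-40) and 4.58 in replicate 3 (interval 3.58 to 5.90, adjusted p = 3.8e-44). *MIR166c* was thus higher in 2 libraries and lower in 1. The ratio differed between the libraries (chi-square 407 with 2 degrees of freedom, adjusted p = 5.7e-88 over 115 such tests, a comparison added after the data were seen), as did those of all 10 pairs of the 5 loci, where 91.3% of the pairs in the table did. On the log2(RPM + 1) scale the ratio averaged 0.63 ± 1.65 (SD, n = 3). An exact two-sided sign-flip permutation test gave p = 0.75, and with 3 libraries its smallest possible p is 0.25. Without replicate 3 the mean was -0.10 and without replicate 2 it was 1.53, so that the direction of the mean rests on single libraries. The reads of *MIR166c* spanned 282 to 366 over the libraries, while those of *MIR166d* spanned 80 to 798.

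**Figure D3:**
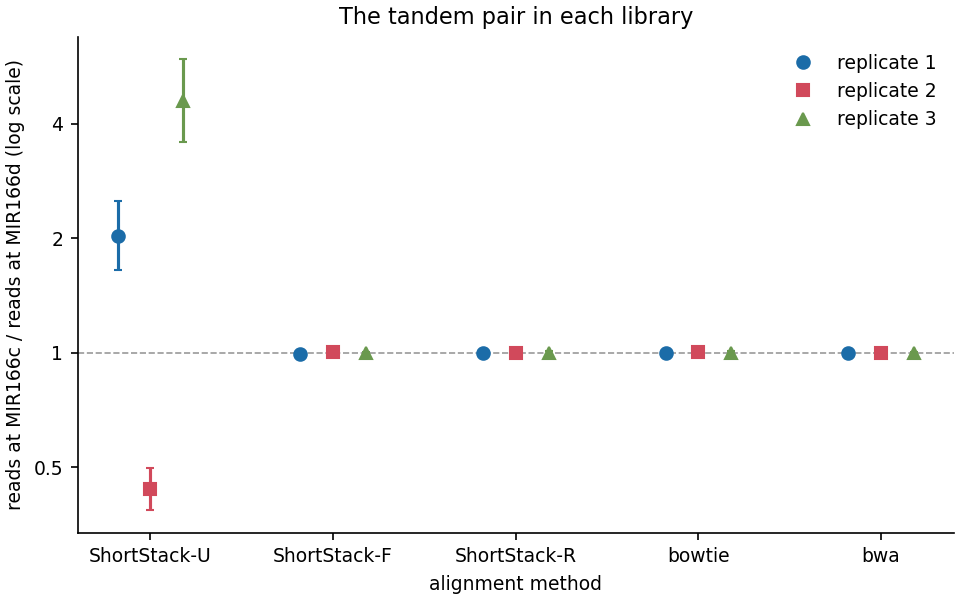
Reads at *MIR166c* divided by reads at *MIR166d* (y axis, log scale) under each of the 5 methods that place MMAP reads (x axis), with 1 point per replicate library and 95% intervals for the counting of placed reads. Under ShortStack-U the ratio lies at 2.03, 0.439 and 4.58, and under the other methods every point lies between 0.993 and 1.01, at the dashed line of equal reads.

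Which loci changed between libraries was tested on the share of each locus in the reads of its family. For this, chi-square tests of homogeneity over the 3 libraries were made for all 11 loci and 5 methods, with Benjamini-Hochberg adjustment over 55 tests. Under ShortStack-U, 4 of the 5 loci had an adjusted p under 0.05, where 81.8% of the 11 loci did, so the count itself does not set them apart from the rest of the table. The 4 were *MIR166d*, *MIR166e*, *MIR166f* and *MIR166g*. A filter at a mean of 10 RPM left *MIR166g* out, with its mean of 4.67 RPM.

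Their changes differed in size, and for 3 of them the direction depended on the total against which the share was taken. The folds are first given against all miR166 reads, of which *MIR166a* held 94.4 to 99.7%. The share of *MIR166f* in replicate 2 was 29.0 times that in replicate 1 (interval 27.4 to 30.7) and 22.8 times that in replicate 3 (interval 21.7 to 23.9). For *MIR166e* the folds were 12.7 (interval 10.5 to 15.4) and 8.78 (interval 7.56 to 10.2). For *MIR166d* they were 5.18 (interval 4.32 to 6.25) and 10.1 (interval 8.0 to 12.9). The share of *MIR166g* in replicate 2 was 28.6 times that in replicate 1 when the 0 reads there are set to 3. The interval of this fold from the counts themselves began at 22.8 and had no upper end. Against replicate 3 the fold was 2.0 (interval 1.40 to 2.89). The 4 loci also differed between replicates 1 and 3. With replicate 2 left out the same 4 were called, at folds of replicate 3 over replicate 1 of 0.514 for *MIR166d* (interval 0.385 to 0.681), 1.45 for *MIR166e* (interval 1.15 to 1.83) and 1.27 for *MIR166f* (interval 1.18 to 1.37). For *MIR166g* the fold was 14.3, again with 0 reads set to 3, and the interval from the counts themselves began at 11.2. *MIR166d* was thus lower in replicate 3 than in replicate 1, and the other 3 loci were higher.

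With *MIR166a* set aside, an alternative added after the data were seen, replicate 2 was the library in which *MIR166f* was highest and *MIR166c*, *MIR166d* and *MIR166e* were lowest. *MIR166f* then held 64.7%, 92.8% and 67.2% of the remaining reads in replicates 1, 2 and 3. *MIR166c* held 14.7%, 0.814% and 13.9%. *MIR166d* held 7.25%, 1.86% and 3.04%, and *MIR166e* held 6.21%, 3.90% and 7.33%. *MIR166g* held 0%, 0.221% and 1.82%, so that it was lower in replicate 2 than in replicate 3. The shares of the 5 loci alone had the same directions. Over the library total, the directions of *MIR166d*, *MIR166e* and *MIR166f* were those over all miR166 reads. The fold of *MIR166g* between replicates 2 and 3 was 1.41 there, and Fisher's exact test of these 2 libraries no longer called it. By the chi-square test over the 3 libraries, *MIR166g* was still called against the library total.

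Over all miR166 reads, *MIR166c* was the locus without a call. It received 0.0410%, 0.0459% and 0.0475% of the miR166 reads in replicates 1, 2 and 3 (chi-square 3.65 with 2 degrees of freedom, adjusted p = 0.35). Its fold of replicate 2 over replicate 1 was 1.12 (interval 0.954 to 1.31), and that of replicate 3 over replicate 1 was 1.16 (interval 0.989 to 1.36), so that a share in replicate 2 or 3 over 1.36 times that in replicate 1 lies outside these intervals. Set against the library total, *MIR166c* was called, with 0.683 times the level of replicate 3 in replicate 2. *MIR166b*, on chromosome 3, was without a call too, at 0.0199%, 0.0261% and 0.0230% of the reads (chi-square 5.98 over 513 reads, adjusted p = 0.14). *MIR166c* had 2.06, 1.76 and 2.07 times the reads of *MIR166b* in replicates 1, 2 and 3, and this ratio passed no threshold between libraries (chi-square 2.03, adjusted p = 0.58). Against the same locus, *MIR166f* had 9.05, 200.5 and 10 times the reads. Replicate 2 was also the most deeply sequenced library, and the part of depth in these changes was not tested.

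The 4 other methods with reads at these loci were then compared with ShortStack-U. ShortStack-F weights a position by all reads in its vicinity, with MMAP reads counted as fractions, while ShortStack-R, bowtie and bwa pick a position without using the reads around it. The remaining 3 methods ignore MMAP reads and listed 0 reads at all loci. The joint share of the 5 loci was 67.5% ± 0.106 (SD, n = 3) under ShortStack-F, 71.5% ± 0.0548 under ShortStack-R, 69.0% ± 0.0529 under bowtie and 71.4% ± 0.0350 under bwa, where an equal split over 7 loci gives 71.4%. ShortStack-U lay 67.8 ± 3.08 percentage points below their mean, and it was the lower in each of the 3 (two-sided exact permutation test that exchanged methods inside each library, p = 0.008, the smallest p of 125 arrangements). All methods aligned the same libraries and differ in their placement rules. This p therefore compares methods, and does not measure the loci or variation between plants. Against the equal split, exact binomial tests with Benjamini-Hochberg adjustment over 15 tests called the joint share in 3 of 3 libraries under ShortStack-U, ShortStack-F and bowtie, and in 0 of 3 under ShortStack-R and bwa (smallest adjusted p = 0.14, with 0 under 0.05 before adjustment). Placement at random gives an equal split by design. The outcome under ShortStack-R and bwa was thus built in and does not describe the loci.

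*MIR166e* set bowtie apart. It received 49311, 54362 and 54719 reads in replicates 1, 2 and 3 under bowtie, while each of the 4 plus-strand loci on the chromosome received between 106093 and 119842. Its reads were 0.461 ± 0.00211 times the mean of those 4 (SD, n = 3). With *MIR166e* last in each library, Kendall's W of the 5 loci was 0.822 under bowtie, the same as under ShortStack-U. All 12 of the tests that involve *MIR166e* were called under bowtie, against 1 of the 18 tests among the plus-strand loci, where 33.3% of all tests under bowtie were called. That 33.3% includes the tests of *MIR166e* itself, also those against *MIR166a* and *MIR166b*, which were called in every library. It is therefore not a separate background for either count. Under bwa the same ratio was 0.997 ± 0.00342, under ShortStack-R 0.998 ± 0.00259 and under ShortStack-F 0.998 ± 0.00190. Under ShortStack-U it was 0.264 ± 0.0912, but the mean of the 4 was there made up mostly of *MIR166f*. That locus held 69.7% to 93.2% of the reads of the 5 loci under ShortStack-U. *MIR166e* ranked 4, 2 and 3 among the 5 in replicates 1, 2 and 3, above *MIR166g* in 3 of 3 libraries. The tandem loci lie on 1 strand, and bowtie gave them 30.9% ± 0.0445 of the miR166 reads together, above the 28.6% of an equal split in 3 of 3 libraries. This is not particular to the pair. Each of the 4 plus-strand loci on the chromosome held between 15.4 and 15.6% under bowtie, and a low share at *MIR166e* raises the others. ShortStack-R and bwa gave the tandem pair 28.6% ± 0.0278 and 28.6% ± 0.0644.

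**Figure D4:**
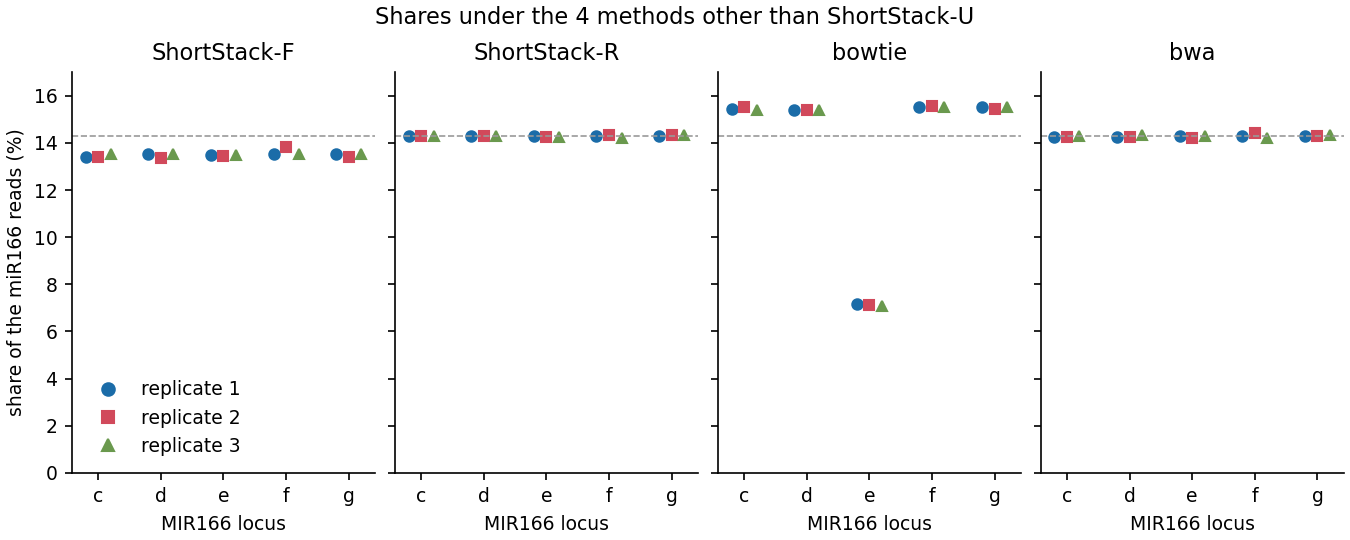
Share of the miR166 reads (y axis, %) at the 5 loci (x axis, by letter) under ShortStack-F, ShortStack-R, bowtie and bwa, with 1 point per replicate library and a dashed line at an equal split of 14.3%. *MIR166e* falls to between 7.10 and 7.16% under bowtie, while all other points lie between 13.4 and 15.6%.

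The difference between *MIR166c* and *MIR166d* was found only under ShortStack-U among these 5 methods, as each of the 12 tests of the pair under the others had an adjusted p of 0.18 or more. Their ratio there lay between 0.993 (ShortStack-F, replicate 1, interval 0.984 to 1.0) and 1.01 (bowtie, replicate 2, interval 0.999 to 1.02). Ratios were also compared between libraries under these methods. Of the 10 pair ratios among the 5 loci, 4 differed between libraries under ShortStack-F, where 47.8% of the 23 pairs in the table did, 0 under ShortStack-R (0%), 0 under bowtie (4.35%) and 2 under bwa (8.7%), and *MIR166c* with *MIR166d* was not among them. ShortStack-R, bowtie and bwa do not use the reads around a position. Near-equal counts at this plus-strand pair were thus built in under them, and those tests do not describe the loci.

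Under ShortStack-F too, the share of *MIR166f* in the miR166 reads was highest in replicate 2, by a much smaller margin. It was 13.52%, 13.81% and 13.51% in replicates 1, 2 and 3. Its RPM was 9670, 9099 and 12592, and thus lowest in replicate 2. *MIR166f* received 93068, 105362 and 104187 reads in replicates 1, 2 and 3. In replicate 2 this was 2.95% above the mean of the other 4 loci, a margin of 3017 reads. In replicate 1 the margin was 0.271%, or 251.5 reads, and in replicate 3 it was -0.173%, or -180.5 reads. Its share differed between libraries (chi-square 36.3 with 2 degrees of freedom, adjusted p = 7.3e-08), and so did that of *MIR166d* (adjusted p = 0.011), which was lowest in replicate 2, at 13.4%, while 27.3% of the 11 loci were called. The shares of a family add up to a fixed sum, so that a higher share at 1 locus lowers the others. All 4 tests called between the 5 loci under ShortStack-F, where 46.4% of all tests were called, set *MIR166f* above another of the 5 loci in replicate 2. Without replicate 2, neither these tests nor the shares of *MIR166d* and *MIR166f* were called, and under Bonferroni adjustment the share of *MIR166d* was not.

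Apart from *MIR166e* under bowtie, few differences passed the tests under ShortStack-R, bowtie and bwa. These methods do not use the reads around a position, so near-equal counts are built in and do not describe the loci. Under ShortStack-R, 0 of the 30 tests between the 5 loci were called (1 had p under 0.05 before adjustment), where 1.45% of all tests were, and 0 of the 5 loci differed between libraries by the chi-square test, also before adjustment, where 0% of all loci did. Under bowtie 0 of the 5 loci differed between libraries, also before adjustment, where 18.2% of all loci did. Under bwa, 1 test was called, where 2.9% of all tests were. It was *MIR166e*, with 108462 reads, against *MIR166f*, with 109937 reads, in replicate 2 (ratio 0.987, exact binomial test, adjusted p = 0.005). *MIR166f* was also the only locus of the table whose share differed between libraries under bwa, at 14.3%, 14.4% and 14.2% in replicates 1, 2 and 3 (chi-square 11 with 2 degrees of freedom, adjusted p = 0.017, 9.09% of the 11 loci). Neither call under bwa held under Bonferroni adjustment or without replicate 2, and that of the share was also lost without replicate 3.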

How the data were processed

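Small RNAs of 3 libraries had been sequenced and trimmed by the authors, who aligned them to TAIR10 by 8 methods (4 modes of ShortStack, U, F, R and N, then bowtie with and without -m 1, Novoalign and bwa). The authors deposited whole-number read counts per library, method and locus, without normalization, and the same counts as RPM. Each deposited RPM value was found to be the count divided by 1 total per library, so 1 read is worth 0.0864 to 0.121 RPM and methods are not rescaled. Which read lengths were counted at each locus is not given in the sources used here. Libraries were matched by their names, and 0 columns of values were left unused.

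Shares, ratios and exact intervals were computed per library. Reads were compared by exact binomial, chi-square and Fisher's exact tests with a threshold of 0.05 and method labels by exact permutation. Adjusted p-values are Benjamini-Hochberg values over all loci, libraries and methods of the table. Fisher's exact tests of library pairs under other totals were adjusted over the loci of each comparison alone. By rule, every one of the 5 loci is named. The members, lists and tests were chosen with earlier results of these data known. The comparison of pair ratios between libraries, the shares with *MIR166a* set aside, the directions between libraries under other totals and the joint share without *MIR166f* were added after the data were examined. Alternatives were the median, summed reads, raw counts, a filter at 10 RPM, pseudocounts of 0.1 and 10 RPM, Bonferroni adjustment, other tests and totals, 24-mers, a window of 3 bins, folding at 22 °C and leaving out each replicate.

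Sequences and positions are from the RefSeq genome and annotation of TAIR10.1, where all 5 loci were matched by symbol. Folding used RNAfold 2.7.2 at 37 °C. Statistics used scipy 1.17.1, pandas 2.3.3 and numpy 2.4.6 in Python 3.11.15, with Biopython 1.88 for alignments and matplotlib 3.10.9 for plots. Code was first tested on simulated reads. The libraries are called replicates, without a label for separate plants. The p-values of the binomial, chi-square and Fisher's exact tests cover the counting of reads only. The permutation of method labels compares methods on the same libraries. Only the sign-flip test uses the spread between these libraries.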

Additional observations from a re-analysis of the deposited data

How the results depend on the processing

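The difference in joint share between ShortStack-U and the other methods kept its direction in all alternatives run, and its side of the threshold in those with a test. The sum of reads over the libraries, at -67.8 percentage points, has none. It ran from -69.6 to -66.9 percentage points with a replicate left out (exact permutation p = 0.04, the smallest possible with 2 libraries), and without the replicate block p was 0.0022. Taken over the miR166 and miR165 reads together, the joint share was 51.2% under ShortStack-F, 54.2% under ShortStack-R, 52.3% under bowtie and 54.1% under bwa, by the larger total. Without *MIR166f* it was 53.9, 57.2, 53.5 and 57.1% in the same order, since 1 locus fewer is counted.

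With a replicate left out, the number of called tests between the 5 loci was 19 to 20 under ShortStack-U, 8 to 9 under bowtie, 0 to 4 under ShortStack-F and 0 to 2 under bwa, of 20 in place of 30. Loci whose share differed between libraries then numbered 0 to 3 under ShortStack-F and 0 to 1 under bwa. Bonferroni adjustment left 1 such locus under ShortStack-F, 0 under bwa and 0 called tests under bwa. Set against the library total, 5 of 5 loci differed under ShortStack-F, ShortStack-R, bowtie and bwa, since the miR166 total itself differs between libraries. The log2 ratio of *MIR166c* to *MIR166d* under ShortStack-U ran from 0.39 with a pseudocount of 10 RPM to 0.97 with the median, and from -0.10 to 1.53 with a replicate left out. Under ShortStack-U, directions between libraries turned with the total. On the log2 scale and with *MIR166a* set aside, the fold of replicate 2 over replicate 1 was -4.18 for *MIR166c*, -1.97 for *MIR166d* and -0.67 for *MIR166e*, against 0.16, 2.37 and 3.67 over all miR166 reads. As shares of the 5 loci alone these were -4.28, -2.07 and -0.77. The fold of replicate 2 over replicate 3 with *MIR166a* set aside was -0.71 for *MIR166d*, -0.91 for *MIR166e* and -3.04 for *MIR166g*, against 3.33, 3.13 and 1.0 over all miR166 reads, and -0.80, -1.0 and -3.14 as shares of the 5 loci alone. *MIR166f* kept its direction under each total. Of the 242 combinations for single loci and genome values, 33 moved and 12 were reversed. *MIR166g* rests on 0 to 95 reads a library.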
